A study of Mus musculus with 219 samples.

Results

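The genes that carry glucose into the cell and convert it to pyruvate and lactate were followed through preimplantation development of the mouse. They were taken by symbol, 10 of the 32285 genes in the count tables: the glucose transporters Slc2a1 and Slc2a3, the hexokinases Hk1 and Hk2, the isomerase Gpi1, the phosphofructokinases Pfkl and Pfkp, the pyruvate kinase Pkm, and the lactate dehydrogenase subunits Ldha and Ldhb. All 10 had a row in both tables. Embryos came from B6C3F1 oocytes injected with CD1 sperm by ICSI (intracytoplasmic sperm injection) at 1 of 3 places relative to the meiotic spindle: contralateral (opposite the spindle), ipsilateral (beside it) or equatorial (between them). At the 2-cell stage (Theiler stage 2) both blastomeres of an embryo were sequenced separately. Other embryos were grown as intact blastocysts or, after their blastomeres had been separated, as twin blastocysts (both Theiler stage 5). All groups shared the cross, ICSI and culture in KSOM medium with amino acids, so no group was fertilized without ICSI. Blastomeres of twins had been pressed out of the zona pellucida and were grown alone in wells, so separation, loss of the zona and single culture cannot be told apart in twins.

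Glucose enters a cell through facilitative transporters of the Slc2a family, is trapped by phosphorylation at a hexokinase, and passes the committed step of glycolysis at phosphofructokinase. Pyruvate kinase makes the pyruvate, and lactate dehydrogenase interconverts pyruvate and lactate as a tetramer of Ldha and Ldhb subunits. The cleaving mouse embryo is known for using pyruvate and lactate in place of glucose, and for taking up glucose actively only as it becomes a blastocyst. The egg is known for an LDH made almost wholly of the Ldhb-encoded subunit.

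The promoters of Hk2, which with Slc2a3 rose most between stages, Ldhb, which fell most, and Ldha, the other subunit of the same enzyme, are shown first. Each is the 250 bases before the RefSeq start in GRCm38.p6, written from 5′ to 3′ on the gene's own strand, with the core of the hypoxia response element, known from many glycolytic genes (ACGTG or GCGTG, read on either strand), in capitals. On the opposite strand these letters appear as CACGT and CACGC, and an ACGTG can be a piece of the E-box CACGTG.
Hk2, chr6:82774455-82774704, minus strand: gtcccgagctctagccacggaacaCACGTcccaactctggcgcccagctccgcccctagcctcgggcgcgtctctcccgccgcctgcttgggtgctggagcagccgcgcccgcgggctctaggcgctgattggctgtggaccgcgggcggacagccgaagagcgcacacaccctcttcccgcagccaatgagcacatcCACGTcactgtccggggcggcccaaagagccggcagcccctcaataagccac
Ldha, chr7:46845554-46845803, plus strand: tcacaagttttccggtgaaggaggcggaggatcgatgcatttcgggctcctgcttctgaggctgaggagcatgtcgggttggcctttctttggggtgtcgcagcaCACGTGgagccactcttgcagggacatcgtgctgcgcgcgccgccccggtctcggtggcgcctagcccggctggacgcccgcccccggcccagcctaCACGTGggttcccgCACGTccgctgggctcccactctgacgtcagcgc
Ldhb, chr6:142507958-142508207, minus strand: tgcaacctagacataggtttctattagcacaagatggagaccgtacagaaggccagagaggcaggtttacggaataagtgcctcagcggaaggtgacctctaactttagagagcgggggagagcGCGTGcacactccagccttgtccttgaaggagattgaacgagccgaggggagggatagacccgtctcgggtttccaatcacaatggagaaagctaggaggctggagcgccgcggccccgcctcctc
The Hk2 window held 2 cores and the Ldhb window 1. The Ldha window held 5 matches, of which 4 came from 2 E-boxes, since that word reads the same on both strands. It lies inside the GENCODE limits of Ldha, which begins further upstream, and RefSeq lists a second Ldha start whose window held 1. Among the 32851 RefSeq windows of the same length, 38.6% held at least 1 core, 16.7% at least 2, 1.01% at least 5, and 6.02% held the E-box. A match is a run of letters only, and no binding was measured. The windows of Hk2, Ldha and Ldhb held 25, 25 and 14 CpG sites, against a median of 6 over all windows. RefSeq windows were found for 9 of the 10 members, Slc2a3 being the other. Of the members not shown, Gpi1 held 0 cores, Pfkl 1, Slc2a1 2 and Pfkp 3. Hk1 held 0 at one start and 3 at another, and Pkm 0 and 1.

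In GRCm38, Hk2 lies at chr6:82725025-82774454, Slc2a3 at chr6:122727809-122801640 and Ldhb at chr6:142490249-142507957, all on the minus strand. Ldha lies at chr7:46841475-46855627 and Gpi1 at chr7:34201330-34230336, on opposite strands. Pkm is at chr9:59656368-59679375, Slc2a1 at chr4:119108711-119137983, Pfkp at chr13:6579768-6648777, and Hk1 and Pfkl at chr10:62268855-62379908 and chr10:77986947-78010083. The count is taken over exons of the whole gene, so isoforms of Pkm, which differ in the choice of an exon, were not separated.

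The embryo was the unit of replication. Counts of sisters, and of both twins, were added, giving 55 2-cell embryos (21 contralateral, 21 ipsilateral, 13 equatorial), 31 intact blastocysts (11, 8 and 12) and 19 pairs of twin blastocysts (6, 7 and 6). Total counts per library were 360474 to 2100561 in blastomeres, 234099 to 1254428 in intact blastocysts and 713410 to 2161062 in twins, so a twin pair was read more deeply than an intact blastocyst. The 2-cell embryos came from plate 1 (42) and plate 2 (13), and all blastocysts from plate 2. In the stage fit the plate term put all 2-cell embryos on the plate 2 level, which rests on those 13. Per the study's methods, blastomeres were sequenced in a paired-end and a single-end dataset, and blastocysts in single-end reads alone. Paired-end data were cut to the first read at the single-end length. The methods do not tie a dataset to a plate. The stage labels held against the oocyte and trophectoderm markers, while markers of the inner cells moved both ways. In intact blastocysts against 2-cell embryos, 1 of 5 epiblast genes was called higher and 2 lower. Of 5 primitive endoderm genes 4 were called higher and 1 lower. The summed level of 6 oocyte genes (Gdf9, Bmp15, Zp2, Zp3, Mos and Dppa3) was 2441 to 3862 CPM (counts of a gene per 1000000 counts of the embryo) in 2-cell embryos, 0 to 403 in intact and 330 to 683 in twin blastocysts, with Mos at 0 in every twin. Bmp15, Zp3 and Mos averaged under 1 CPM in twins. The 2 oocyte genes tested between twin and intact blastocysts went opposite ways, Dppa3 called higher in twins and Zp2 lower. The sum of 6 trophectoderm genes was 31.1 to 216, 2957 to 6377 and 2994 to 3724 CPM. Of 7 cumulus genes, 4 averaged under 1 CPM in 2-cell embryos and 6 in each kind of blastocyst. Their sum averaged 26.9 ± 14.8 (SD) CPM in 2-cell embryos, 7.55 ± 20.7 in intact and 7.08 ± 4.79 in twin blastocysts. Amhr2, Has2 and Tnfaip6, the 3 tested between stages, were all called lower in intact blastocysts. After contralateral, ipsilateral and equatorial ICSI the 2-cell sum averaged 22.6 ± 14.5, 26.5 ± 12.6 and 34.4 ± 16.8 CPM. No cumulus gene was called between sites at that stage. Nothing in the labels says that embryos came from separate oocyte donors, so p-values measure the spread between these embryos.

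In 2-cell embryos edgeR called 2 of the members between ICSI sites, Pkm and Ldhb. Gpi1 lay near the threshold and was called under some alternatives, and the other 7 were not called. Pkm, which makes pyruvate, was lower after contralateral and after ipsilateral than after equatorial ICSI. Ldhb was higher after contralateral ICSI. Of the 10 members, edgeR called 2 between contralateral and equatorial ICSI (adjusted p under 0.05), against 13.2% of all 13141 genes tested, and 1 between ipsilateral and equatorial ICSI, against 6.65%. Between contralateral and ipsilateral ICSI edgeR called 0 members and 0.0% of all genes, while 555 genes and 1 member, Gpi1, had an unadjusted p under 0.05. The count by DESeq2 was 0 as well. A share of 1 or 2 in 10 is near these backgrounds, so the members were not called more often than genes in general.

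The lowest, median and highest Pkm levels were 61, 113 and 192 CPM after contralateral ICSI, 81.5, 133 and 223 CPM after ipsilateral ICSI, and 165, 179 and 223 CPM after equatorial ICSI. In words, the equatorial embryos formed a narrow high band: 19 of 21 contralateral and 19 of 21 ipsilateral embryos lay below every equatorial embryo, though the ranges overlapped. The log2 fold change against equatorial ICSI was -0.68 ± 0.13 (SE, edgeR adjusted p = 0.000193) for contralateral and -0.46 ± 0.13 (edgeR adjusted p = 0.0221) for ipsilateral ICSI. On plate 2 alone, which held 3 contralateral, 8 ipsilateral and 2 equatorial embryos, the same order was seen, with highest levels of 164.6 and 163.4 CPM after contralateral and ipsilateral ICSI and a lowest of 165.8 CPM after equatorial ICSI. On plate 1 alone the fold changes were -0.69 and -0.45 (adjusted p = 0.000322 and 0.049). Depth moved with the groups, the median total being 1297280 counts per blastomere after contralateral, 1530273 after ipsilateral and 1108741 after equatorial ICSI. With total count and detected genes as covariates, the contralateral value was -0.64 (adjusted p = 0.0015), while the ipsilateral value of -0.38 was no longer called (adjusted p = 0.249).

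Ldhb, the subunit that dominates LDH of the egg, was the most abundant member at this stage. Its lowest, median and highest levels were 578, 739 and 953 CPM after contralateral ICSI, 534, 692 and 1105 CPM after ipsilateral ICSI, and 272, 551 and 865 CPM after equatorial ICSI. All 21 contralateral and 20 of 21 ipsilateral embryos lay above the equatorial median, yet the ranges overlapped. The log2 fold change was 0.35 ± 0.10 (SE, edgeR adjusted p = 0.00738) for contralateral against equatorial ICSI and 0.20 ± 0.10 (adjusted p = 0.211) for ipsilateral against equatorial ICSI. The direction was not the same on both plates. On plate 1 the means were 755.1 ± 115.5 (SD, n = 18) CPM after contralateral and 552 ± 139 (SD, n = 11) CPM after equatorial ICSI, whereas on plate 2 they were 727 ± 94.5 (SD, n = 3) and 810 ± 77.9 (SD, n = 2) CPM. The contralateral difference also missed the threshold in a rank-sum test on added TPM (adjusted p = 0.0837), the kind of test the study's methods name.

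**Figure D1:**
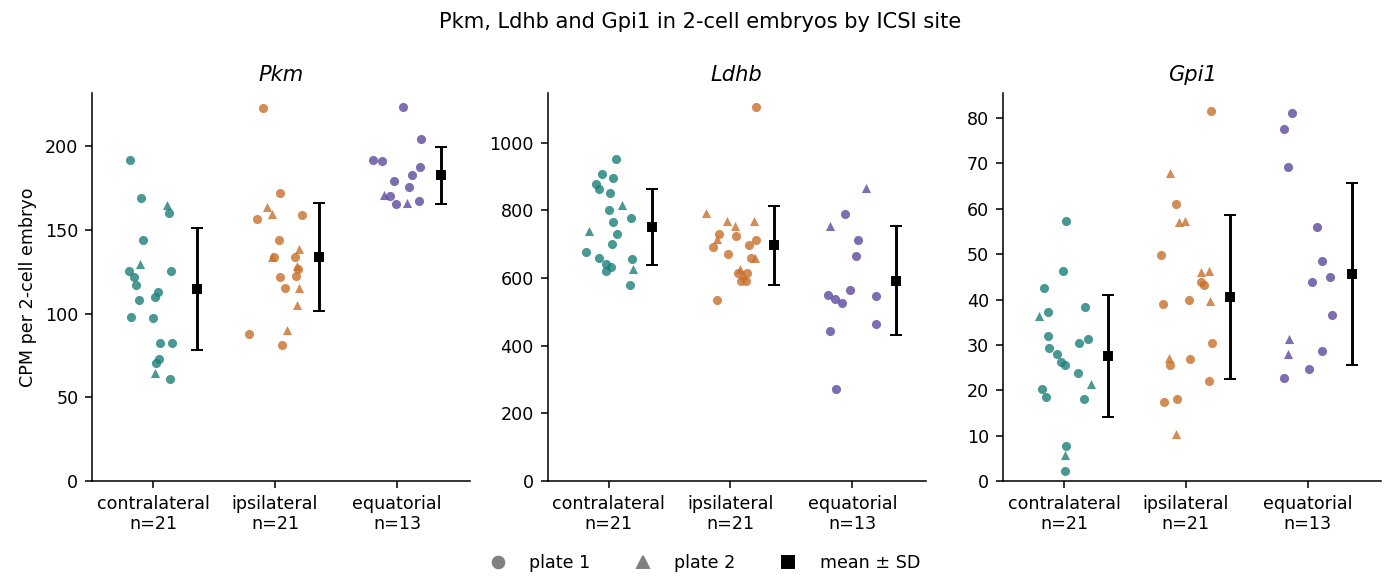
Levels of Pkm, Ldhb and Gpi1 in each 2-cell embryo by ICSI site, in CPM on a linear axis from 0. Circles are embryos of plate 1, triangles of plate 2, and squares with bars the mean ± SD. The equatorial embryos form a narrow band for Pkm, from 165 to 223 CPM, while both equatorial embryos of plate 2 lie high for Ldhb.

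Gpi1, which turns glucose 6-phosphate into fructose 6-phosphate, had medians of 28.1, 39.9 and 43.8 CPM after contralateral, ipsilateral and equatorial ICSI, within ranges of 2.24 to 57.4, 10.3 to 81.5 and 22.8 to 81.2 CPM. 7 of 21 contralateral embryos lay below every equatorial embryo. The log2 fold change of contralateral against equatorial ICSI was -0.73 ± 0.27 (SE) and missed the threshold in edgeR (adjusted p = 0.0609), while DESeq2 gave an adjusted p of 0.0437. For the other 7 members no difference between sites was detectable. Among the enzymes, Hk2 had medians of 12.1, 18.3 and 13.1 CPM after contralateral, ipsilateral and equatorial ICSI, Pfkl of 24, 22 and 26.1 CPM and Pfkp of 13.1, 21 and 23.8 CPM, each within overlapping ranges. Ldha had medians of 53.3, 69.4 and 73.5 CPM. Hk1 was hardly counted, at 0 in 8 of 21, 5 of 21 and 3 of 13 embryos. The transporter Slc2a1, for instance, differed by -0.01 on the log2 scale between contralateral and equatorial ICSI, with a 95% interval of -0.69 to 0.68. The interval for Slc2a3 was -0.52 to 0.86 and that for Ldha was -0.79 to 0.26, and the value seen for Pkm lies inside the intervals of Slc2a1 and Ldha.

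Between the 2-cell embryo and the intact blastocyst most members rose. Both transporters, Hk2, Gpi1, both phosphofructokinases and Ldha rose, Ldhb nearly vanished, Hk1 fell, and Pkm did not pass the test. edgeR called 9 of the 10 members, against 75.3% of all 15682 genes tested. Of the members 7 were higher, against 29.4% of all genes, and 2 lower, against 45.9%. The members were chosen with earlier results of these data known, so these contrasts with all genes are descriptive. The median of all genes was a log2 fold change of -0.54 under this scaling, -0.26 with total counts alone and -0.49 with RLE factors. On plate 2 alone it was -0.08. Relative to the median of -0.54, Slc2a1 stood at 1.8, Slc2a3 at 5.02, Hk1 at -1.88, Hk2 at 5.15 and Gpi1 at 3.13. Pfkl stood at 1.69, Pfkp at 1.68, Pkm at 0.78, Ldha at 1.45 and Ldhb at -11.4. Whether a blastocyst had less RNA per cell or other numbers of cells of each type cannot be told apart in these libraries of whole embryos. Results on plate 2 alone, the only plate with both stages, are given where they differ in call. How many of all genes separated the stages without overlap was not counted, so such separation is not shown to be particular to the members.

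Of the transporters, Slc2a1, the widely expressed glucose carrier, had a lowest, median and highest level of 0, 27.4 and 74.9 CPM in 2-cell embryos and of 13.5, 67.1 and 188 CPM in intact blastocysts. The ranges overlapped, with 13 of 31 blastocysts above every 2-cell embryo. Its log2 fold change was 1.27 ± 0.34 (SE, edgeR adjusted p = 0.000644), or 1.80 above the median of all genes. Slc2a3, a high-affinity carrier, went from 1.41, 17.1 and 60.2 CPM to 236, 443 and 896 CPM, and all 31 blastocysts lay above all 55 2-cell embryos. This was a log2 fold change of 4.48 ± 0.31 (SE, edgeR adjusted p = 3.79e-24), a 22.4-fold rise. Per length, Slc2a3 made up 29.5% ± 20.9 (SD, n = 55) of the TPM (counts per exonic length, scaled to a sum of 1000000) of both transporters at the 2-cell stage and 75.6% ± 12.1 (SD, n = 31) in intact blastocysts.

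The hexokinases trap glucose in the cell. Hk2, an isoform common in growing cells, went from 0, 13.9 and 53.6 CPM (lowest, median, highest) to 265, 397 and 838 CPM, with no overlap between stages. Its log2 fold change was 4.62 ± 0.46 (SE, edgeR adjusted p = 2.16e-15), or 24.5-fold, which differs from that of Slc2a3 by less than its SE. Hk1 was sparse throughout, at 0, 2.62 and 39.8 CPM in 2-cell embryos and 0, 0 and 15.4 CPM in intact blastocysts, with 16 of 55 and 16 of 31 embryos at 0. Its fall of -2.42 ± 0.80 on the log2 scale (SE, edgeR adjusted p = 0.00515) was not called on plate 2 alone (-1.06, adjusted p = 0.298). Hk2 already held 77.9% ± 25.8 (SD, n = 53) of the TPM of the pair in 2-cell embryos, and 99.7% ± 0.511 (SD, n = 31) in intact blastocysts.

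Gpi1 rose from 2.24, 31.9 and 81.5 CPM to 132, 251 and 512 CPM, again with every blastocyst above every 2-cell embryo (log2 fold change 2.59 ± 0.26, SE, edgeR adjusted p = 1.29e-15). The phosphofructokinases set the pace of the pathway. Pfkl, named for liver, had medians of 24 CPM in 2-cell embryos and 73 CPM in intact blastocysts, and Pfkp, named for platelets, of 18.4 and 56.1 CPM. Both rose by a similar log2 fold change, 1.15 ± 0.27 (SE, adjusted p = 7.58e-05) for Pfkl and 1.14 ± 0.40 (adjusted p = 0.00849) for Pfkp, and both overlapped between stages. Pfkp shares 748 exonic bases with Pitrm1 on the other strand, and counting was without strand, so reads there cannot be told apart.

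Pkm had a lowest, median and highest level of 61, 134 and 223 CPM in 2-cell embryos and 36.9, 219 and 359 CPM in intact blastocysts. The difference of 0.24 on the log2 scale (95% interval -0.06 to 0.55) was not called (edgeR adjusted p = 0.152), though it was with total counts alone (0.53, adjusted p = 0.00226). Ldha, the subunit common in muscle and growing cells, went from 14.5, 62.4 and 146 CPM to 0, 163 and 323 CPM, a log2 fold change of 0.91 ± 0.32 (SE, edgeR adjusted p = 0.00739). The ranges overlapped widely. The single intact blastocyst without an Ldha count was a contralateral library of 1254428 counts, where 0 allows a level of up to 2.39 CPM.

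Ldhb did the opposite. It stood at 272, 692 and 1105 CPM (lowest, median, highest) in 2-cell embryos and was at 0 in 28 of 31 intact blastocysts, the other 3 having at most 4.25 CPM. Summed over embryos, there were 102107 Ldhb counts of 147367298 at the 2-cell stage and 5 of 22125255 in intact blastocysts, a 3066-fold difference with a 95% counting interval of 1314 to 9443. In the 11 contralateral intact blastocysts the count was 0 of 7092243, which allows up to 0.423 CPM. edgeR gave a log2 fold change of -11.95 (adjusted p = 1.02e-65), a value that depends on the prior count. Its SE of 0.20, derived from the F value, gives an interval narrower than the counting interval and understates the error. The counting intervals cover counting error only. In the transcripts of the LDH pair, Ldhb held 95.4% ± 2.57 (SD, n = 55) of the TPM of Ldha and Ldhb in 2-cell embryos, never under 89.9%, and 0.279% ± 0.953 (SD, n = 30) in intact blastocysts, never over 4.67%.

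**Figure D2:**
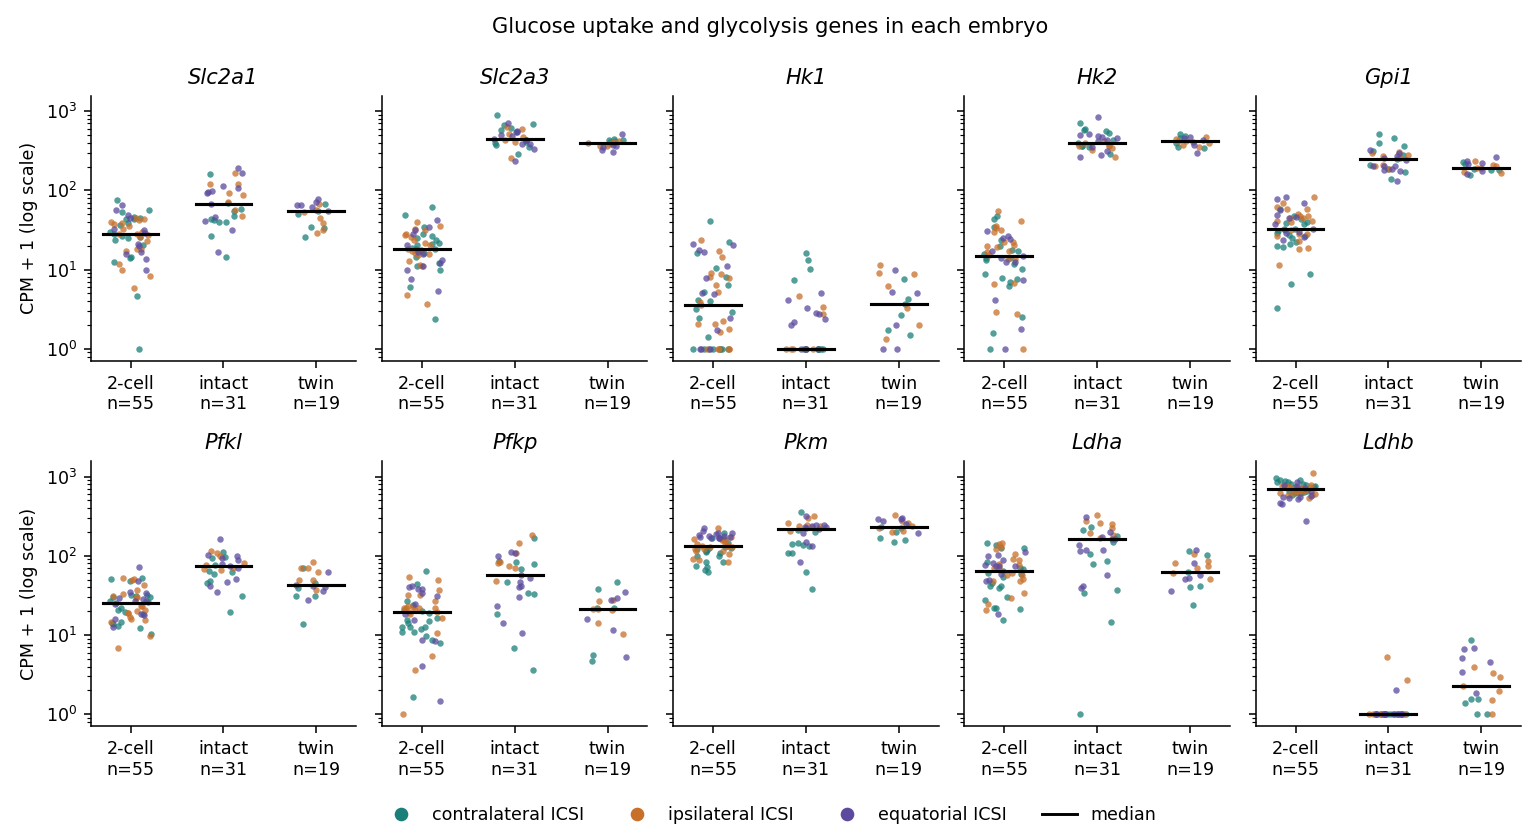
Level of each member in every embryo, as CPM + 1 on a log axis, for 2-cell embryos (n = 55), intact blastocysts (n = 31) and twin blastocysts with both twins added (n = 19). Points are embryos coloured by ICSI site and black lines are medians. Slc2a3, Hk2 and Gpi1 separate the stages without overlap, and Ldhb does so in the other direction. The share of all genes that do so was not counted.

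The summed level of the 10 members rose from 1053 ± 128.1 (SD, n = 55) CPM in 2-cell embryos to 1737 ± 185 (SD, n = 31) CPM in intact blastocysts, and was 1431 ± 110.7 (SD, n = 19) CPM in twins. The order of the genes turned over with it. By mean TPM, a scale that divides counts by annotated exonic length, the 2-cell order was Ldhb, Pkm, Ldha, Slc2a1, Gpi1, Pfkl, Hk2, Slc2a3, Pfkp and Hk1. Ldhb stood at 1447 ± 249 and Pkm next at 92 ± 29.8 TPM (SD, n = 55). Slc2a3 and Hk2, at 8.95 ± 5.32 and 8.97 ± 6.95 TPM, did not differ beyond their spread. In intact blastocysts Hk2 came first at 209 ± 64.3 TPM, followed by Slc2a3 at 193 ± 57.9 TPM, within its spread, and then Ldha, Gpi1 and Pkm at 129.4 ± 75.7, 115.1 ± 41.9 and 114.8 ± 46.1 TPM (SD, n = 31), also within theirs.

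**Figure D3:**
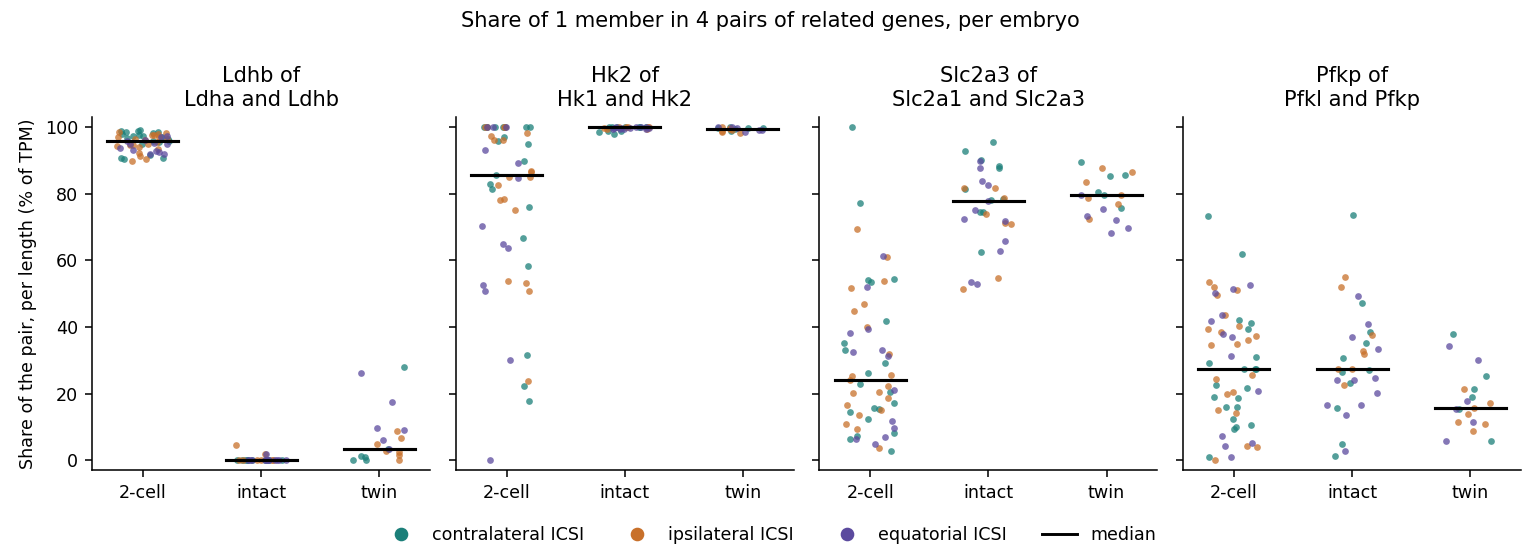
Share of 1 member in the summed TPM of 4 pairs of related genes, in percent, for each embryo. Points are coloured by ICSI site and black lines are medians. From 2-cell embryos to intact blastocysts, Ldhb gives way to Ldha from 95.4% to 0.279% on average, and Slc2a3 overtakes Slc2a1. Hk2 already holds 77.9% of its pair on average in 2-cell embryos, and 99.7% in intact blastocysts. The share of Pfkp stays near 29% at both stages.

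Twin blastocysts had lower levels than intact blastocysts of most of the genes that had risen. The rise and the twin difference share the same intact blastocysts, so they are not independent. Of the 8 members tested, edgeR called 6, all lower in twins: Slc2a1, Slc2a3, Gpi1, Pfkl, Pfkp and Ldha. Of all 10689 genes tested, 40.7% were called and 20.6% were called lower. Hk2 and Pkm were not called, and Hk1 and Ldhb were removed by the filter on low counts. The median log2 fold change of the 8 members was -0.55, beside 0.00 for all genes. The members were chosen with earlier results of these data known, so this contrast is descriptive and not an independent test. Of 14 other glycolytic genes tested, 3 were called higher and 2 lower, with a median of 0.29.

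Slc2a1 had a lowest, median and highest level of 25.0, 53.3 and 77.7 CPM in twins and 13.5, 67.1 and 188 CPM in intact blastocysts, and 17 of 19 twin pairs lay below the intact median (log2 fold change -0.67 ± 0.21, SE, edgeR adjusted p = 0.00744). For Slc2a3 the twin levels were 309, 401 and 516 CPM, with 18 of 19 below the intact median of 443 CPM (-0.37 ± 0.11, adjusted p = 0.00357). Twins overlapped intact blastocysts for both transporters and spread less. Each twin value adds both twins of a pair, while an intact value is a single library of lower depth. These spreads are therefore not measured alike. With mean depth per library as a covariate Slc2a1 was no longer called (-0.55, adjusted p = 0.0997), nor was it in a rank-sum test on CPM (adjusted p = 0.125).

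Hk2 was at 299, 415 and 507 CPM in twins, against 265, 397 and 838 CPM in intact blastocysts, a log2 difference of -0.11 with a 95% interval of -0.33 to 0.10 (edgeR adjusted p = 0.44). Gpi1 was at 156, 190 and 264 CPM in twins, and 18 of 19 pairs lay below the intact median of 251 CPM. Its log2 fold change of -0.44 ± 0.12 (SE, edgeR adjusted p = 0.00219) was not called with depth as a covariate (-0.28, adjusted p = 0.14).

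Both phosphofructokinases and Ldha were lower in twins. Pfkp had levels of 3.72, 20.4 and 46.3 CPM in twins and 2.61, 56.1 and 183 CPM in intact blastocysts, and all 19 twin pairs lay below the intact median. This was the largest estimate among the 8 members tested, a log2 fold change of -1.74 ± 0.30 (SE, edgeR adjusted p = 3.26e-06), or 0.299-fold. Ldha had levels of 23.1, 62.1 and 116.8 CPM in twins and 0, 163 and 323 CPM in intact blastocysts, all 19 pairs again below the intact median (-1.19 ± 0.27, adjusted p = 0.000361). Pfkl, at 12.7, 41.7 and 82 CPM in twins and 18.4, 73 and 164 CPM in intact blastocysts, fell by 0.81 ± 0.18 (SE, adjusted p = 0.00027). After ipsilateral ICSI the ranges of Pfkp and Ldha did not overlap: 7 of 7 twin pairs lay below 8 of 8 intact blastocysts. After contralateral and after equatorial ICSI the ranges of both genes overlapped. The share of all genes without overlap was not computed, so this separation is not shown to be particular to these genes. The twin difference was not shown to vary between sites (unadjusted edgeR F test, p = 0.291 for Pfkp and 0.32 for Ldha).

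Hk1 was counted in 17 of 19 twin pairs, at 0, 2.72 and 10.5 CPM (lowest, median, highest), and in 15 of 31 intact blastocysts, with overlapping ranges. In a fit without the filter its log2 difference of 0.88 was not called (SE 0.60, edgeR adjusted p = 0.346).

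Pkm was at 147, 230 and 331 CPM in twins, and its log2 difference of 0.15 had a 95% interval of -0.11 to 0.41 (edgeR adjusted p = 0.391). Ldhb was low in both kinds of blastocyst but less so in twins. It was counted in 16 of 19 twin pairs, at 0, 1.26 and 7.54 CPM (lowest, median, highest), and in 3 of 31 intact blastocysts. The 97 counts in twins against 5 in intact blastocysts were a 9.84-fold difference in share of counts, with a 95% counting interval of 4.07 to 30.97, and 8.71-fold (3.59 to 27.6) without the highest twin pair. In a fit without the filter edgeR called Ldhb higher in twins (3.06 ± 0.68 on the log2 scale, SE, adjusted p = 0.000249). Twin pairs were the more deeply read, and Ldhb was counted in 19 of 38 single twins. In TPM, Ldhb held 6.97% ± 8.34 (SD, n = 19) of the LDH pair in twins, and still 311.7 times less Ldhb was seen in twins than in 2-cell embryos (95% counting interval 255.5 to 384.4).

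**Figure D4:**
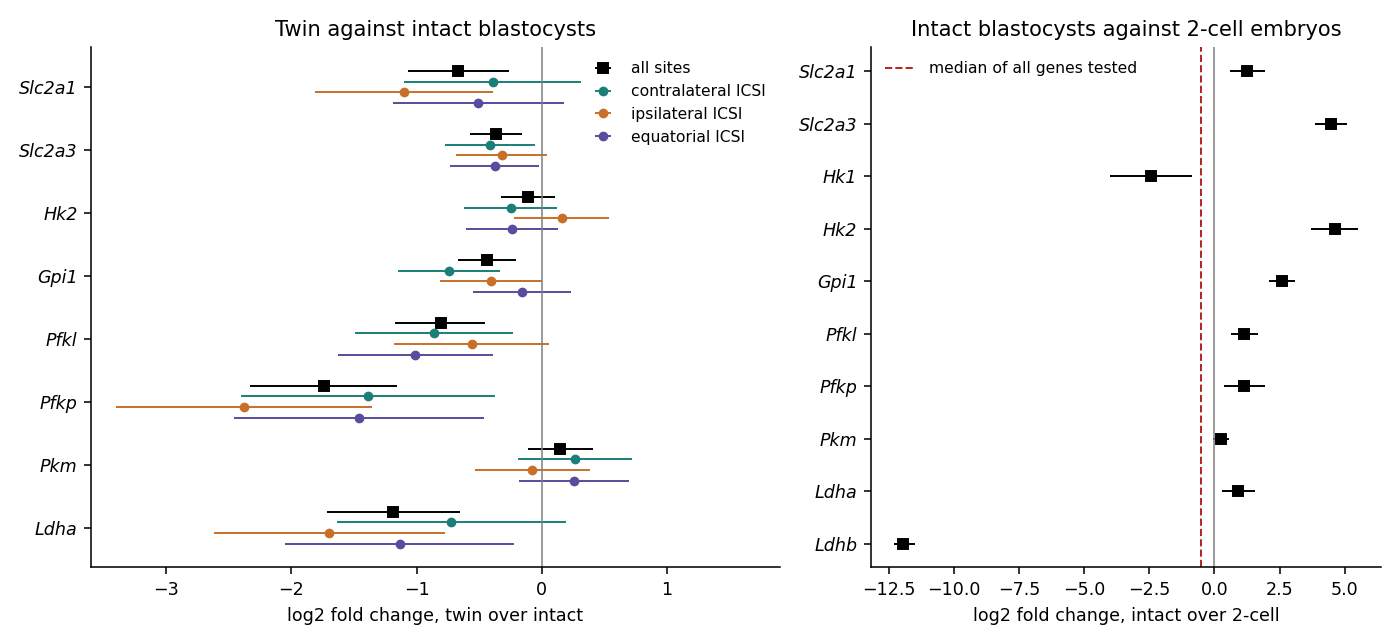
Log2 fold changes with approximate 95% intervals from edgeR: left, twin over intact blastocysts for the 8 members tested, over all sites (squares) and within each ICSI site (circles); right, intact blastocysts over 2-cell embryos for all 10 members, with the median of all genes as a dashed line. Pfkp and Ldha show the largest twin differences, and Ldhb the largest stage difference. The interval drawn for Ldhb is narrower than its counting error and understates the uncertainty.

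Markers of cell type moved between the same groups. Of 5 epiblast genes, 4 were called higher in twins (Klf2, Nanog, Pou5f1 and Sox2), with a summed level of 248 to 497 CPM in twins and 28 to 299 CPM in intact blastocysts. Of 6 trophectoderm genes, 3 were called lower in twins (Eomes, Gata3 and Tfap2c) and Cdx2 higher, with overlapping sums of 2994 to 3724 and 2957 to 6377 CPM. Among the 5 primitive endoderm genes 1 was called higher and 1 lower, with sums of 281 to 500 and 58.5 to 576 CPM. The part of these markers in the differences of the members was not tested. With mean depth per library as a covariate, 4 members stayed called lower in twins: Slc2a3 (-0.44, edgeR adjusted p = 0.00508), Pfkl (-0.68, adjusted p = 0.0178), Pfkp (-1.59, adjusted p = 0.00038) and Ldha (-0.89, adjusted p = 0.0297). Hk2 was then at 0.25 (adjusted p = 0.0942).

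Put in place of intact blastocysts against 2-cell embryos, twins showed the rises of Slc2a1, Slc2a3, Hk2 and Gpi1 and the fall of Ldhb, with log2 fold changes of 0.76, 4.27, 4.68, 2.32 and -8.67, all called by edgeR. Hk1 was not called (-1.43, adjusted p = 0.123). Pkm was called higher in twins than in 2-cell embryos (0.55, adjusted p = 0.000113). Pfkl, Pfkp and Ldha were not called (0.50, -0.45 and -0.12, adjusted p = 0.0927, 0.33 and 0.699). These values share the 2-cell embryos with the comparison of intact blastocysts.

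The ICSI site was not accompanied by a called difference of any member in blastocysts. An F test across the 3 sites called 0 of 8 members in twins, against 0.0% of all genes, and 41 genes but 0 members had an unadjusted p under 0.05. Those genes were 0.384% of all tested, fewer than a threshold of 0.05 passes when no gene differs. The test was thus overly strict in twins, and the absence of calls does not show equal levels. In intact blastocysts edgeR called 0 of 8 members, against 0.0842% of all genes, but 5 had an unadjusted p under 0.05 (Slc2a1, Hk2, Gpi1, Pkm and Ldha), against 13% of all genes. DESeq2 likewise called 0 members in either. The lowest of these 5 was Pkm (p = 0.00549, edgeR adjusted p = 0.193), with medians of 137, 240 and 228 CPM after contralateral, ipsilateral and equatorial ICSI. Ldha, with medians of 83.8, 236 and 127.4 CPM, ranged from 0 to 228 CPM after contralateral ICSI. The difference between twin and intact blastocysts was not shown to depend on the site either: edgeR called 0 of 8 members and 0.0% of genes, with 246 genes and 0 members under 0.05 before adjustment, and 0 in DESeq2. At 2.3% of genes this share was also low, so a dependence on the site is not excluded. Within sites, the log2 fold change of Ldha was -0.72, -1.70 and -1.14 after contralateral, ipsilateral and equatorial ICSI, and that of Pfkp -1.39, -2.38 and -1.46.

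The measured levels of sister blastomeres were compared within each embryo. Ldhb was nearly equal, with a median absolute log2 ratio of 0.14 over 55 pairs and no pair over 2-fold. Pkm followed at 0.38, with 7 of 55 pairs over 2-fold. The other 8 members had medians of 0.87 (Ldha) to 1.76 (Hk1), and for Hk2 36 of 55 pairs were over 2-fold, with 1 sister at 0 in 11 pairs and both at 0 in 3. Abundance differed too: the mean count per blastomere was 928 for Ldhb, 182 for Pkm and 8.26 to 91.2 for the others. The part of counting error and capture in the ratios was not tested. Between twins of a pair, where Hk2 and Slc2a3 had mean counts of 471 and 448, their median ratios were 0.18 and 0.17 with no pair over 2-fold, while Pfkp, at a mean count of 23, had 1.26 and 14 of 19 pairs over 2-fold.

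**Figure D5:**
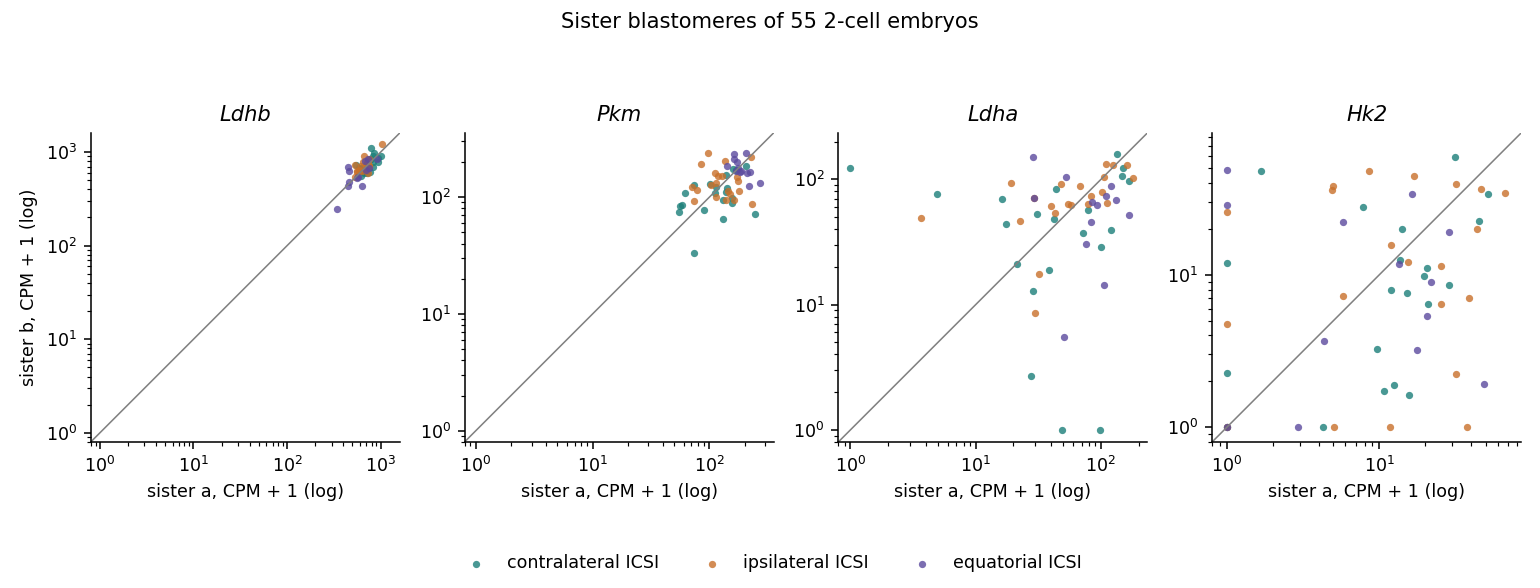
Level in sister a against sister b for Ldhb, Pkm, Ldha and Hk2 in the 55 2-cell embryos, as CPM + 1 on log axes, coloured by ICSI site. The grey line marks equal levels. Ldhb lies along the line, with no pair over 2-fold apart, while Hk2 scatters widely, with 1 sister at 0 in 11 pairs and both in 3.

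The neighbours of the members in the pathway were taken from 3 lists, also chosen with earlier results of these data known. Among 26 other transporters, glycolytic enzymes and isoforms, 21 were tested between stages, of which 10 rose and 4 fell (29.4% and 45.9% of all genes), with a median log2 fold change of 1.43 beside -0.54 for all genes. Gapdh, the dehydrogenase in mid-pathway, rose from a median of 96.6 to 473 CPM (2.03 ± 0.14, SE, edgeR adjusted p = 2.51e-24). Among 17 genes of pyruvate and lactate transport and of pyruvate dehydrogenase with its kinases and phosphatases, 16 were tested, 6 rose and 7 fell, with a median of -0.42. Pdk3, a kinase that switches pyruvate dehydrogenase off, fell from a median of 114.6 to 1.55 CPM (-4.83 ± 0.33, adjusted p = 1.49e-24). Of 7 genes of the pentose phosphate pathway, 4 rose and 1 fell. The one that fell was G6pdx, its entry enzyme, from a median of 296 to 43 CPM (-3.15 ± 0.20, adjusted p = 6.58e-27).

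Between twin and intact blastocysts, where 40.7% of all genes were called and 20.6% called lower, of 14 other glycolytic genes tested 3 were higher and 2 lower, of 14 pyruvate genes 3 were higher and 2 lower, and of 7 pentose phosphate genes 1 was higher and 1 lower, with medians of 0.29, 0.05 and -0.03. The 3 with the smallest p were Pgam2, a phosphoglycerate mutase named for muscle, higher in twins (2.61 ± 0.38, SE, edgeR adjusted p = 1.35e-07), Slc16a1, a carrier of lactate and pyruvate, lower (-0.69 ± 0.12, adjusted p = 6.64e-06), and Rpia, which makes ribose 5-phosphate, lower (-0.97 ± 0.19, adjusted p = 2.81e-05). In 2-cell embryos, between contralateral and equatorial ICSI (13.2% of all genes called), 2 of 14 glycolytic genes were lower and 0 higher, 3 of 13 pyruvate genes were higher and 0 lower, and 1 of 6 pentose phosphate genes was called in each direction. The 3 with the smallest p were Dlat, a subunit of pyruvate dehydrogenase, higher (1.09 ± 0.24, edgeR adjusted p = 0.00101), Mpc1 of the mitochondrial pyruvate carrier, higher (0.63 ± 0.14, adjusted p = 0.00157), and Pgam1, a phosphoglycerate mutase, lower (-0.86 ± 0.20, adjusted p = 0.00163). Between ipsilateral and equatorial ICSI (6.65% of all genes called) 0 of 14, 2 of 13 and 1 of 6 were called: Mpc1 was higher (0.64 ± 0.15, adjusted p = 0.00395), and Rpia (-0.89 ± 0.19, adjusted p = 0.00206) and Pdk1 (-0.63 ± 0.20, adjusted p = 0.0386), another pyruvate dehydrogenase kinase, were lower. Between contralateral and ipsilateral ICSI none of the 3 lists had a called gene, as for all genes.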

How the data were processed

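RNA of single blastomeres and blastocysts was converted to full-length cDNA (SMART-Seq) and sequenced. Per the submitters' processing notes and the methods, the authors trimmed reads with Trimmomatic 039 and mapped blastomeres and blastocysts separately with STAR 2.7.10b to GRCm38 and its GENCODE M23 annotation, ignoring strand. What the authors deposited are raw counts per gene and library, whole numbers without normalization. The deposited counts equal, in all 4035625 blastomere and 2227665 blastocyst entries, a matrix in which reads with the same ends were counted once. Libraries of the other blastomeres in the labels (125 of 150 are in the table) were not analysed here. Embryos with both blastomeres at 9500 or more detected genes were kept, the limit of the study's methods. The methods' second limit, on mitochondrial counts, was not applied, and a limit of 2% was an alternative.

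CPM and TPM were computed here, TPM with GENCODE M21 exonic lengths, which 32235 of 32285 genes have. The length merges all annotated exons of a gene and can exceed that of the transcript present. Orders and shares by TPM depend on it. Counts added per embryo were tested with edgeR 4.0.16 (quasi-likelihood, TMM, filterByExpr, robust, Benjamini-Hochberg, threshold 0.05), with plate as a covariate where 2-cell embryos entered and a term for each ICSI site. Adjusted p-values cover all genes tested. The SE given with an edgeR value is the absolute log2 fold change divided by the square root of the F value. The alternatives were DESeq2 1.42.0, other scalings, filters, covariates, subsets and a rank-sum test with 100000 permutations. On simulated counts with 2-fold changes edgeR recovered 38.8% of changed genes between contralateral and equatorial ICSI (4.05% of its calls false), 60.4% between twin and intact blastocysts (7.94%) and 25.8% between stages (19.4%). The simulations held 183, 192 and 194 changed genes that were tested, and no plate effect. Far larger shares of genes were called in the data, so these rates cannot be carried over to them. The members and lists were chosen with earlier results of these data known. Named genes are all members and, from the pathway lists, the 3 called genes of smallest p per comparison; genes named in the marker lists were the called ones.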

Additional observations from a re-analysis of the deposited data

Results flagged for a closer look

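3 values lay far from the other embryos of their group by Dixon's test, of 40 sets of 6 to 8 embryos in which it was run. Chance flags about 1 in 20 for normally distributed values. Sparse counts need not follow that rate, such as Ldhb in intact blastocysts after ipsilateral ICSI, at 0 in 6 of 8 embryos. Ldhb in twin blastocysts after contralateral ICSI reached 7.54 CPM (15 counts) in 1 of 6 embryos, with the next at 0.543 CPM. Slc2a3 in twin blastocysts after equatorial ICSI reached 516 CPM (865 counts) in 1 of 6 embryos, with the next at 371 CPM. Ldhb in intact blastocysts after ipsilateral ICSI reached 4.25 CPM in 1 of 8 embryos, a value of 3 counts, with the next at 1.71 CPM.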

How the results depend on the processing

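Of 460 values of single members under an alternative, 421 kept direction and side of the threshold, 8 lost a call, 5 gained one and 26 changed sign. The number of members called stayed within 1.5 times that reported, except for ipsilateral against equatorial ICSI, where it went to 0 with depth covariates. Of all genes, 61 were then called, in place of 874. The rank-sum test called 1524 there. Without a filter on low counts 3930 genes in place of 1733 were called between contralateral and equatorial ICSI, 2603 between ipsilateral and equatorial ICSI and 1577 in place of 0 between contralateral and ipsilateral ICSI, with 0 members in the last. For twin against intact blastocysts 2734 genes were called with depth as a covariate, in place of 4353. Between sites in intact blastocysts 9 genes became 189 in DESeq2, 558 without a filter and 4 with total counts alone.

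The changes of sign were all of uncalled values or in twins put in place of intact blastocysts. For contralateral against equatorial ICSI, Slc2a1 became 0.01 with RLE factors, no filter or DESeq2 (0.0066 to 0.0103), 0.0175 without a plate term, 0.21 on plate 1 alone, 0.0631 with at most 2% mitochondrial counts and 0.22 in all 62 pairs, and Hk2 became -0.19 on plate 1 alone, -0.00825 in all 62 pairs and -0.0301 with depth covariates. For ipsilateral against equatorial ICSI, Pfkl became 0.0623 in all 62 pairs, Pfkp 0.21 on plate 1 alone, and Ldha -0.0151 without a plate term, -0.0341 with depth covariates and -0.0933 in the rank-sum test. For contralateral against ipsilateral ICSI, Slc2a3 became -0.0848 with at most 2% mitochondrial counts, -0.0562 in all 62 pairs and -0.0843 with depth covariates, Hk1 -0.36 on plate 1 alone and -0.65 with at most 2% mitochondrial counts, and Pfkl 0.0727 with at most 2% mitochondrial counts and 0.0017 with depth covariates. For twin against intact blastocysts, Hk2 became 0.25 with depth as a covariate and 0.0175 without intact blastocysts under 500000 counts. With twins in place of intact blastocysts, Pfkp became -0.45 and Ldha -0.12 against 2-cell embryos. The causes were not tested.

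Depth limits the sparse members most. Hk1 had a median of 6 counts per 2-cell embryo and Ldhb 5 counts in all intact blastocysts. No paired analysis was possible because embryos of different groups share no number that marks a common origin.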
